A study of Homo sapiens with 6 samples.

Results

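The S100 proteins are small calcium sensors, and 10 of their genes were followed here in SKOV3, a human ovarian cancer line that the labels class as high-grade serous, among 19775 genes that the array's annotation names by a probe set of their own. The genes were S100P, S100A2, S100A3, S100A4, S100A6, S100A10, S100A11, S100A13, S100A14 and S100A16, and every probe set that names a single one of them was taken, 13 in all. They were chosen with the signals of these same arrays known, for the contrast between S100P and the other 9 after miR21 transfection. Every value of that contrast is therefore a description of how the genes were chosen, and no test of it is given. Cells received either a miR21 precursor at 5 nM (3 arrays) or a negative control precursor (3 arrays), and RNA was taken after 24 h. Both groups were transfected, and no untransfected cells were used here. Replicate numbers 1 to 3 occur in both groups. The sample labels do not say whether they stand for separate cultures, so the p-values below cover the variation among these arrays alone, whether technical or not.

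S100 proteins carry a pair of EF-hand loops that bind calcium and usually work as dimers. On binding calcium they expose a surface that grips a partner, such as an annexin, a myosin or ezrin, and several are also released from cells and act on the receptor RAGE. Many are used as markers of epithelial tumours, S100P and S100A4 for invasive growth among them. In the RefSeq gene table, S100A10 and S100A11 are neighbours on chromosome 1. Farther along the same chromosome S100A4, S100A3 and S100A2 follow each other, and then S100A16, S100A14 and S100A13, while S100P lies on chromosome 4 between unrelated genes.

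The mature miRNA is shown as the agent that was transfected, and the upstream windows as the start regions of the 4 genes with the largest differences. No signal on these arrays measures what either sequence does. The mature miRNA, from RefSeq (GRCh38.p14, chr17:59841273-59841294, + strand), has its seed, bases 2 to 8, in capitals. It was not read by the array: the 3 probe sets that name its gene also name VMP1 and say nothing of the mature form. The other windows are the 150 bases before the RefSeq start of each gene in GRCh38.p14, read 5′ to 3′ on the gene's strand. They are chr4:6693728-6693877 on the + strand for S100P, and on the - strand chr1:153549259-153549408 for S100A3, chr1:153565845-153565994 for S100A2 and chr1:151993860-151994009 for S100A10.
hsa-miR-21-5p: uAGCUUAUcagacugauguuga
S100P: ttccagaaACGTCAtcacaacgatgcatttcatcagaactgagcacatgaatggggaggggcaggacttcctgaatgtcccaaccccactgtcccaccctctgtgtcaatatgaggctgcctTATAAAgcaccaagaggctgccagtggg
S100A3: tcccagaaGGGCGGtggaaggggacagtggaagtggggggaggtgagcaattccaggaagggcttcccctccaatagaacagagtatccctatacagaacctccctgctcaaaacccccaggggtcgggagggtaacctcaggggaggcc
S100A2: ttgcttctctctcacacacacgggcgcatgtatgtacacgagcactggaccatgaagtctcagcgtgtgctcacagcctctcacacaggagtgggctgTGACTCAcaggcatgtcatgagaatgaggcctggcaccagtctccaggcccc
S100A10: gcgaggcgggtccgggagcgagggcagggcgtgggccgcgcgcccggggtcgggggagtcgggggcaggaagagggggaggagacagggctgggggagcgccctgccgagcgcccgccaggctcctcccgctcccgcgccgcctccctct

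Capitals in these windows mark matches, on either strand, to 4 motifs, none of which overlap each other here. The letters TATAAA are those of a TATA box, and TGACGT is the core of a cAMP response element. GGGCGG is a GC box, and TGANTCA, with N for any base, is an AP-1 site. The S100P window holds TATAAA at 28 to 23 bases before the start and TGACGT, on the opposite strand, at 142 to 137 bases before it. Over 35116 RefSeq windows of the same length, 6.71% hold TATAAA and 5.39% hold TGACGT. Among the 10 genes, with every RefSeq start counted, TATAAA was found for S100P, S100A4 and S100A13 and TGACGT for S100P. The AP-1 letters stand in the S100A2 window at 52 to 46 bases before the start, and 4.17% of all windows hold them. GGGCGG stands at 142 to 137 bases before the S100A3 start and in 36.8% of all windows, and 5 of the 10 genes have it. The gene counts take any start of a gene and the percentages are of single windows, so they are unlike measures. These are matches of letters and not measured binding sites.

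The deposited MAS5 signals had been scaled, with a mean of 500 per array after 2% was trimmed at both ends. The arrays of replicate number 1 stood apart from the rest. Their median signals were 117 (miR21) and 125 (control), against 55.2 to 61.8 on the other 4 arrays, so dim probe sets read higher on them. Of the 8 epithelial markers checked, all 8 lay above a signal of 65.5, the median of all probe sets, under which a gene was filtered out. The HER2 gene ERBB2, amplified in this line, read at least 14614 on every array by its brightest probe set. Its other probe sets read 138 to 981 and 194 to 274. Summed over the 8 markers, the signals lay between 64219 and 94058 on miR21 arrays and between 57195 and 110785 on control arrays. Of 6 fibroblast markers 2 passed the filter, COL1A1 and COL1A2, with a sum of 222 to 984 on miR21 arrays and 310 to 847 on control arrays. COL1A1 read 824 (miR21) and 675 (control) in number 1 and 108 to 181 on the other 4 arrays. Of 4 endothelial markers only PECAM1 passed. It read 397 (miR21) and 483 (control) in number 1, and 22.3 to 53.4 on the other 4 arrays, below the filter. The leukocyte markers named by a probe set of their own, 5 of 6 listed, had none above it. The part of other cells in the S100 values was not tested. In such bulk samples, fewer cells with a transcript and less of it per cell cannot be told apart.

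S100P, a member that binds ezrin and signals through RAGE when secreted, was near the bottom of the scale in control cells and bright on a pair of the miR21 arrays. Its signal was 1962, 5597 and 17.8 on miR21 replicates 1, 2 and 3, against 15.2, 47.4 and 31.2 on control replicates 1, 2 and 3. All 3 control arrays and miR21 replicate 3 lay below the filter signal, and miR21 replicates 1 and 2 lay far above it, so the groups overlapped through a single array. Since the control signals are dim, their ratios to miR21 signals are rough, and miR21 replicates 1 and 2 were set against the filter signal, which they exceeded 30.0-fold and 85.5-fold. Within number 3 the S100P signal was lower with miR21, by a log2 difference of -0.81 between signals that are both dim. The mean log2 signal was 9.18 ± 4.42 with miR21 and 4.82 ± 0.83 with control (SD, n = 3 each), a log2 difference of 4.36.

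**Figure D1:**
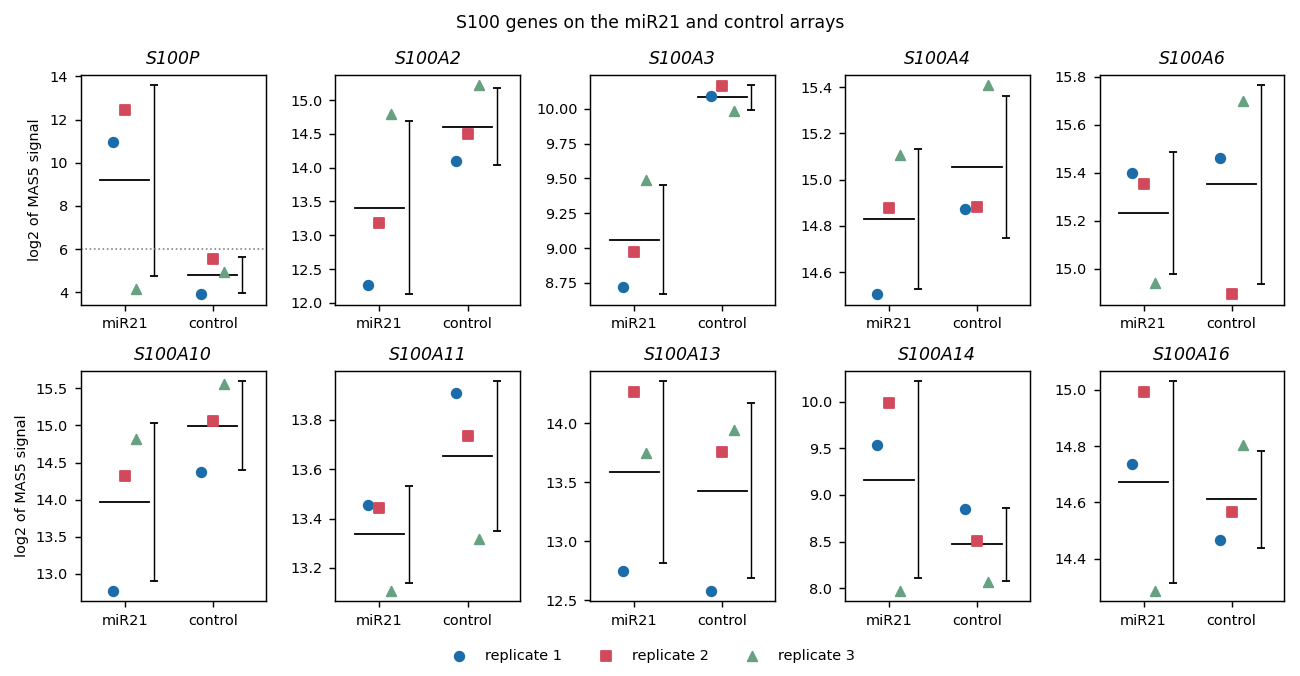
Log2 MAS5 signal of the 10 S100 genes, by the probe set of highest mean signal, on miR21 arrays (left) and control arrays (right); symbols are replicate numbers, horizontal lines group means and bars 1 SD (n = 3), and each panel has its own axis. S100P has miR21 replicates 1 and 2 far above the dotted filter line (6.03) and miR21 replicate 3 below it with the 3 controls, and S100A3 has every miR21 array below every control array.

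S100P was chosen for its difference and passed the signal filter only through its bright arrays, so its place among the 12205 genes is a description and supports nothing. Its miR21 minus control differences within number 1 (log2 7.02) and number 2 (6.88), taken over dim control signals, were the highest of all. In number 3, 11889 genes had a difference at or above that of S100P. Without miR21 replicate 3 the log2 difference was 6.88, and without miR21 replicate 2 it was 2.73. A pattern drawn from its own values, control signals all below the filter and both miR21 replicates 1 and 2 above it, was counted over all 41091 probe sets that name a single gene. With over 4-fold asked for within both numbers, 17 probe sets had it, with over 8-fold 6, and with over 16-fold 1, that of S100P, so the count depends on the fold asked for.

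The other 9 genes lay above the filter signal on every array and differed far less. Their log2 differences ran from -1.20 to 0.69, with a median of -0.23, against a median of -0.01 over all genes tested. The medians within numbers 1, 2 and 3 were -0.37, -0.01 and -0.44, against -0.03, 0.0004 and -0.0003 for all genes. S100P lay above all 9 of them in numbers 1 and 2 and below all 9 in number 3, where all 9 were lower with miR21. The S100P difference minus the median of the other 9 was 4.59 on the log2 scale over all arrays, and 7.38, 6.89 and -0.37 within numbers 1, 2 and 3. Those sizes share the roughness of the dim S100P control signals, and the genes were chosen on them.

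Limma, a linear model fitted to all 12205 genes with Benjamini-Hochberg adjustment, called 0 of the 10 genes at an adjusted p under 0.05, and 0% of all genes. With the replicate number as a block it again called 0 of the 10, against 0.0328% of all genes (4 of 12205, all higher). Since the genes were chosen on this contrast, nothing is read from these counts. Of the 10, 5 were lower with miR21 in all 3 replicate numbers (S100A2, S100A3, S100A4, S100A10 and S100A11), a pattern that 20.9% of all genes showed. S100P, S100A13, S100A14 and S100A16 were higher in numbers 1 and 2 and lower in number 3, like 16% of all genes. S100A6 was mixed, and none of the 10 was higher in all 3, against 20.3% of all genes. In chromosome order, the neighbours S100A4, S100A3 and S100A2 belong to the pattern that is lower throughout, and the neighbours S100A16, S100A14 and S100A13 to the other. This rests in part on values close to 0, for S100A4 in number 2 (-0.01) and S100A14 in number 3 (-0.09). The other S100A13 probe set (-0.58, 1.11 and -0.67) has neither pattern, nor has S100A5 next to S100A4 (-0.14, -0.06 and 0.27). S100P, on chromosome 4, shares the pattern of S100A16.

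**Figure D2:**
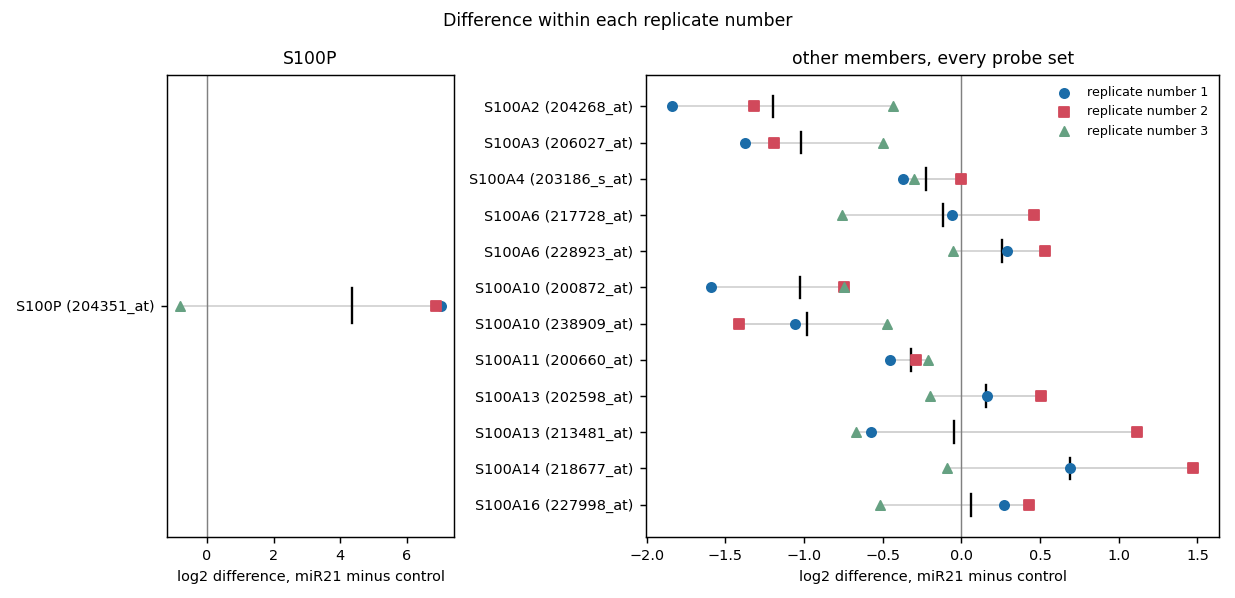
Log2 difference, miR21 minus control, within replicate numbers 1, 2 and 3 (symbols) and its mean (black tick) for the S100P probe set (left) and the 12 probe sets of the other genes (right; the axes differ in range). S100P lies at 7.02 and 6.88 in numbers 1 and 2 and at -0.81 in number 3, whereas S100A2, S100A3 and both S100A10 probe sets lie below 0 in all 3.

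S100A10 and S100A11 are the members that pair with annexins at membranes. S100A10, also called p11, holds annexin A2 in a tetramer and offers a docking site for plasminogen and its activator. It read 7005, 20459 and 28789.9 on miR21 replicates 1, 2 and 3, against 21118, 34244 and 48234 on control replicates 1, 2 and 3. Within every number the miR21 array was the lower, although the groups overlap because both rank number 1 lowest and number 3 highest. The log2 difference was -1.03, with -1.59, -0.74 and -0.74 within numbers 1, 2 and 3, so its signal was 2.04-fold lower with miR21. The size rests in part on number 1: without both of its arrays the log2 difference was -0.74. Without miR21 replicate 1 alone it was -0.43, with the same-numbered control, the lowest of the controls, still in. With any 1 array left out it lay between -1.45 and -0.43. A separate S100A10 probe set read 167, 156 and 360 with miR21, against 346, 415 and 501 with control. It gave a log2 difference of -0.98 and was lower with miR21 in all 3 numbers too.

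S100A11, which binds annexin A1 and is known from keratinocyte growth arrest, read 11236, 11134 and 8830.0 with miR21, against 15368, 13618 and 10215 with control, for replicates 1, 2 and 3. Its log2 difference was small, -0.32, but of like size in each number (-0.45, -0.29 and -0.21; SD 0.12). With any 1 array left out the difference lay between -0.48 and -0.19. RefSeq lists 10 S100A11 pseudogenes, and a probe set cannot be assumed to tell such copies apart.

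S100A2 and S100A3 are the members tied to keratinising epithelia, S100A2 as a nuclear protein induced by p53 and S100A3 as a cysteine-rich protein of the hair cuticle. S100A2 read 4893, 9309 and 28284 on miR21 replicates 1, 2 and 3, against 17492, 23161 and 38278 on control replicates 1, 2 and 3. Its log2 difference of -1.20 was the lowest of the 10 genes. Within numbers 1, 2 and 3 it came to -1.84, -1.31 and -0.44. The SD of these 3 values was 0.71. Without miR21 replicate 1 the mean difference was -0.62, and without miR21 replicate 3 it was -1.89, each with the same-numbered control still in. Without both arrays of number 1 it was -0.88, and without both of number 3 it was -1.58.

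S100A3 read 422, 503 and 718 on miR21 replicates 1, 2 and 3, against 1092, 1147 and 1015 on control replicates 1, 2 and 3. Every miR21 array lay below every control array, and S100A3 was the only gene of the 10 whose groups did not overlap. Groups did not overlap for 6.65% of all genes, 3.27% on the lower side. Its mean log2 signal was 9.06 ± 0.39 with miR21 and 10.08 ± 0.09 with control (SD, n = 3 each), a difference of -1.02, with -1.37, -1.19 and -0.50 within numbers 1, 2 and 3. Its signal was 2.03-fold lower with miR21.

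S100A4, known as metastasin, binds non-muscle myosin IIA and is linked to cell motility. It read 23255, 30103 and 35259.5 with miR21, against 30028, 30214 and 43524 with control, for replicates 1, 2 and 3. The groups overlapped, and the log2 difference was -0.23, with a value close to 0 in number 2 (-0.37, -0.01 and -0.30). S100A6, or calcyclin, had no steady direction. Its probe set of highest mean read 43224, 41905 and 31463 with miR21, against 45076, 30456 and 53222 with control, and differed by -0.06, 0.46 and -0.76 within numbers 1, 2 and 3. Another S100A6 probe set differed by 0.29, 0.53 and -0.05, so the sign of the S100A6 mean depends on the probe set (-0.12 against 0.26).

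S100A13, which assists the release of fibroblast growth factor 1 from cells, read 6878, 19653 and 13749 with miR21, against 6136, 13846 and 15804 with control, for replicates 1, 2 and 3. The mean difference of 0.16 was under the SD of the differences within the numbers, 0.35. Its other probe set gave -0.58, 1.11 and -0.67 within the numbers. S100A14, a member found in epithelia, read 741, 1010 and 252 with miR21, against 461, 364 and 268 with control. It was higher in numbers 1 and 2 (log2 difference 0.69 and 1.47) and close to 0 in number 3 (-0.09). Its mean difference was 0.69, under the SD of the differences within the numbers (0.78), and it was 0.28 without miR21 replicate 2 and 1.28 without miR21 replicate 3.

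S100A16, a widely expressed member that binds calcium weakly, read 27288, 32615 and 19990.1 with miR21, against 22641, 24242 and 28570.0 with control. It was higher by 0.27 and 0.43 on the log2 scale in numbers 1 and 2 and differed by -0.52 in number 3, so its mean of 0.06 joins opposite values. For S100A13 and S100A16 the sign of the mean difference turned without miR21 replicate 2 or without control replicate 1.

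Other genes of the family were listed for comparison, along with S100PBP, the gene of a binding partner of S100P. They were listed with results of these data already known. Of these 11 genes, 8 lay below the signal filter, among them the calprotectin genes S100A8 and S100A9. Those 8 had no signal above 107 on miR21 arrays or above 100.5 on control arrays. S100A1, whose gene adjoins S100A13, read 447, 520 and 356 with miR21, against 230, 294 and 406 with control, a log2 difference of 0.53 with 0.96, 0.82 and -0.19 within numbers 1, 2 and 3. It thus had the direction of S100A14, S100A16 and the brighter S100A13 probe set in each number, and the groups overlapped. S100A5, between S100A6 and S100A4 on the chromosome, differed by 0.02. S100PBP differed by 0.08. Its other probe set differed by 0.46, with 0.57, 0.61 and 0.21 within numbers 1, 2 and 3 and without overlap of the groups. Groups did not overlap on the higher side for 3.38% of all genes, each by its brightest probe set. Limma, fitted to the brightest probe set of each gene, called 0 of these 3 measured genes, with or without the block. None had an unadjusted p under 0.05 in either fit, against 2.44% and 20.1% of all genes.

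Annexins and other partners gave no call either. Each standard error (SE) here is from the fit without the block. It includes what same-numbered arrays shared, and the SE with the block was smaller for every gene listed. Of 12 listed annexin genes 9 passed the filter. Their log2 differences had a median of -0.09, and limma called 0 of them without the block or with it. With the block, unadjusted p-values under 0.05 came for 3 of the 9, 2 higher and 1 lower, against 9.82% and 10.3% of all genes, and without it for 0, against 2.44%. ANXA2, the partner of S100A10, read 21091, 32857 and 33223 with miR21, against 27857, 30800.3 and 46707 with control. Its difference was -0.27 (SE 0.31), and 2 more of its probe sets gave -0.28 and -0.30, while S100A10 differed by -1.03. The dimmest ANXA2 probe set, with signals of at most 55.3, gave 0.48. ANXA1, the partner of S100A11, differed by -0.12 (SE 0.28).

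Without the block the annexins of smallest p were ANXA9 and ANXA4. With it they were ANXA4 (unadjusted p = 0.0213 in limma), ANXA3 and ANXA7, and ANXA9 had 0.0504. ANXA9 read 131, 230 and 128 with miR21, against 85.5, 78.7 and 103 with control, and differed by 0.82 (SE 0.46) without overlap of the groups, as did 3.38% of all genes on the higher side. ANXA4, an annexin of secretory epithelia, differed by 0.60 (SE 0.39), with 1.06, 0.73 and 0.02 within the numbers, and its other probe set by 0.48. Both had an adjusted p of 0.9999 in limma without the block.

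Of 12 other partners 10 were measured, a list chosen with earlier results of these data known. Of those, 9 had a negative difference, against 51.2% of all genes. Their median was -0.38, against -0.01 for all genes. Limma called 0 of the 10 in either fit. Its unadjusted p was under 0.05 for 1 of them without the block, against 2.44% of all genes, and for 3, all lower, with it, against 10.3% of all genes on the lower side. PLAT, the tissue plasminogen activator that S100A10 can dock, read 179, 65.9 and 291 with miR21, against 647, 485 and 242 with control. It differed by -1.49 (SE 0.63, adjusted p = 0.9999 in limma), with -1.86, -2.88 and 0.26 within the numbers, so the direction held in 2 of 3. MYH9, the myosin heavy chain bound by S100A4, read 1846, 2489 and 4301 with miR21, against 4016, 4228 and 5081 with control. Its difference was -0.71 (SE 0.36), lower in all 3 numbers. AHNAK, the scaffold bound by the complex of S100A10 and annexin A2, was chosen after its values were seen and differed by -0.84 (SE 0.68, and 0.17 with the block), with -1.14, -0.99 and -0.39 within the numbers. Its adjusted p with the block was 0.113 in limma. The next brightest AHNAK probe set gave -2.18, 0.37 and -0.002 in numbers 1, 2 and 3, a mean of -0.60. Its -2.18 lay between dim signals of 8.5 (miR21) and 38.6 (control), both below the filter signal. This probe set was higher in number 2 and close to 0 in number 3. Dimmer AHNAK probe sets, below the filter, had means of -0.86, 0.32 and 0.04. EZR, the ezrin gene, differed by -0.23 (SE 0.25), and its dimmer probe sets by -0.23, -0.46, -0.60 and -0.63. AGER, the gene of RAGE, lay below the filter. Over all 39 measured relatives and partners limma called 0 in both fits. Without number 3 the block fit called 20 of them (6 higher, 14 lower), against 32.8% of all genes (15.9% higher, 16.9% lower), from 2 pairs of arrays.

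Genes of other EF-hand proteins served as a family with the same calcium-binding fold. All 17 with a probe set of their own were measured, of 20 listed, with 3 higher, 14 lower and a median of -0.25, and limma called 0 in either fit. Of all genes, 51.2% were lower. The block fit gave an unadjusted p under 0.05 for 1 higher and 3 lower genes, against 9.82% and 10.3% of all genes, and the fit without it for 0, against 2.44%. Those of smallest p without the block were the calpain subunit gene CAPNS1 (log2 difference -0.40, SE 0.26) and the calcineurin subunit gene PPP3R1 (0.51, SE 0.35; its other probe set 0.21). None of the 7 listed genes of the fused S100 type, filaggrin and trichohyalin among them, was measured above the filter.

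**Figure D3:**
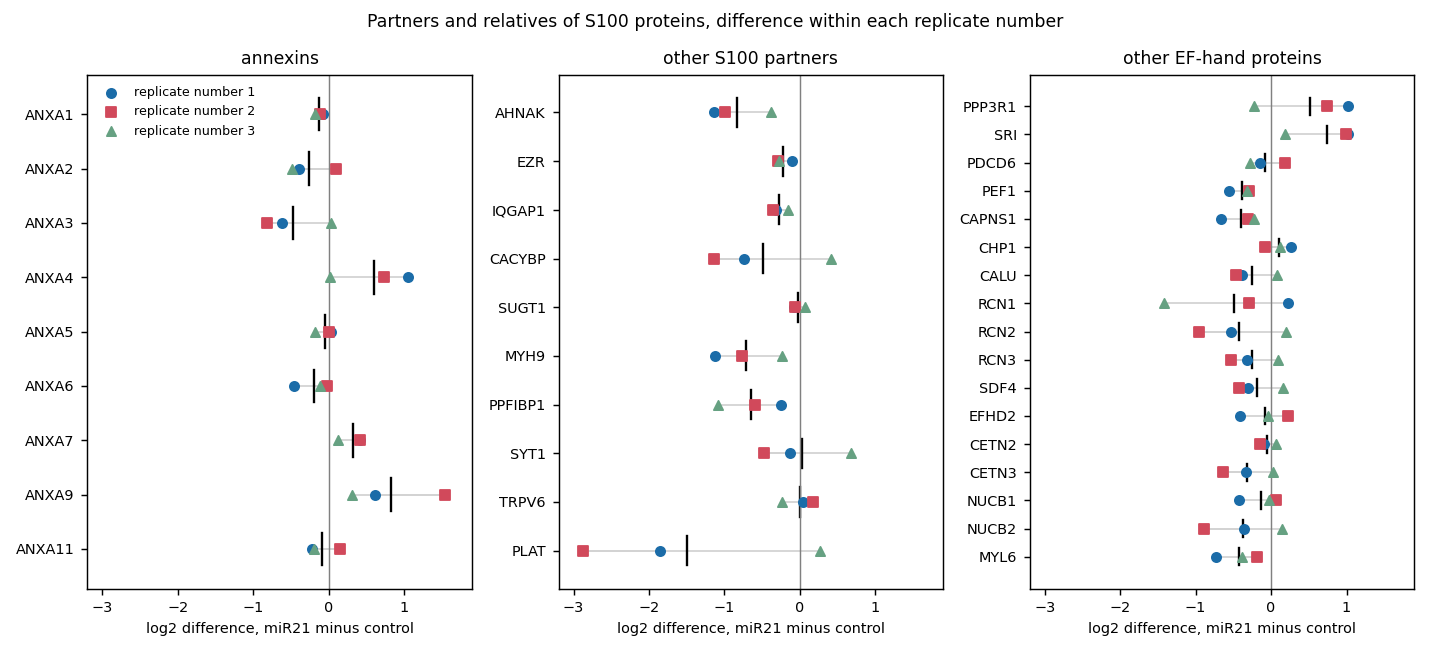
Log2 difference, miR21 minus control, within replicate numbers 1, 2 and 3 (symbols) and its mean (black tick) for the measured annexins, other S100 partners and other EF-hand genes. PLAT has the widest spread, from -2.88 to 0.26, and no gene comes near the 7.02 and 6.88 of S100P.

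The genes whose signals followed S100P most closely were sought over the 6 arrays. The measure was the root mean square difference between log2 profiles, each centred on its own mean, and it favours genes of large amplitude. The nearest of all genes tested was PRSS33, a serine protease gene, at 1.27 log2 units. It read 1439, 4029 and 29.7 on miR21 replicates 1, 2 and 3, against 141, 144 and 46.0 on control replicates 1, 2 and 3, and its other probe set read 471, 1252 and 42.1 against 101, 82.2 and 47.3. PRSS33 thus had the same bright pair of arrays.

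Next came NUPR1, a stress-induced nuclear protein gene, at 1.65. Its signal was 5333, 14716 and 332 with miR21, against 743, 1605 and 244 with control. SLC7A2, a cationic amino acid transporter gene (1.79), differed by 5.32, 3.79 and 0.09 within numbers 1, 2 and 3, and its 2 other probe sets had means below the filter. DDIT3, the stress transcription factor CHOP (1.83), differed by 2.55, 2.82 and 0.23, and DHRS3, a retinal reductase gene (1.86), by 2.80, 3.24 and 0.86. All 5 were highest on miR21 replicate 2 and next on miR21 replicate 1, the order of S100P, and these 5 were selected for that likeness.

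**Figure D4:**
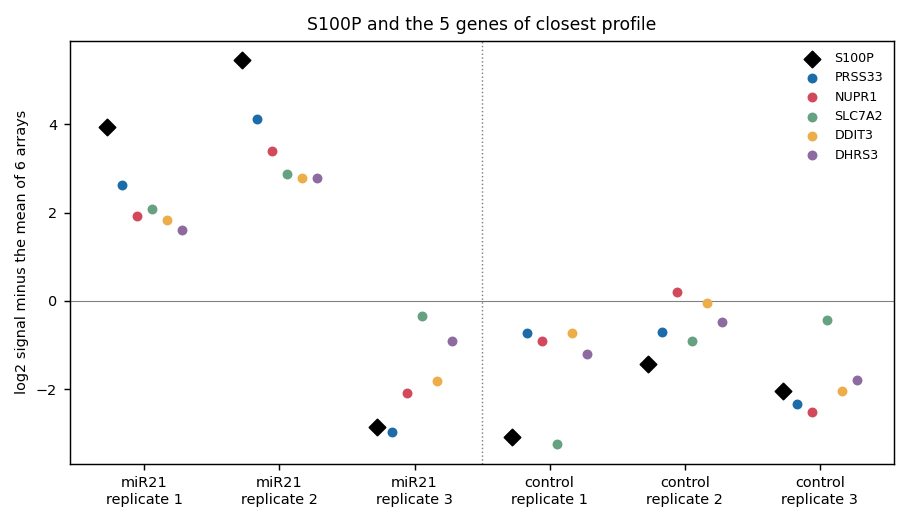
Log2 signal minus the mean of the 6 arrays for S100P (diamonds) and the 5 genes of closest profile (dots), with miR21 arrays on the left and control arrays on the right. All 6 genes are highest on miR21 replicates 1 and 2, and on miR21 replicate 3 S100P and PRSS33 are the lowest of the 6.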

How the data were processed

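Per the labels' protocols, U133 Plus 2.0 arrays were hybridised with biotinylated cRNA made by amplifying SKOV3 total RNA. The deposited values are linear MAS5 intensities per probe set, per the submitters' processing notes; the MAS5 version was not given in the sources used here. Of 54613 non-control probe sets, 41091 name 1 gene in the platform annotation, and 41037 of these matched RefSeq by Entrez identifier (GRCh38.p14). A gene's brightest probe set by mean log2 signal stood for it, and genes were kept above the median of all probe sets (log2 6.03), leaving 12205. No pseudocount was added. Groups were compared in R 4.3.3 with limma 3.58.1 (lmFit, then eBayes with trend, Benjamini-Hochberg at 0.05), tested on simulated data. The number of arrays limits precision. Members, lists and tests were chosen with earlier results of these data known. Named were all 10 S100 genes, the 2 genes of smallest p per list, ANXA1, ANXA2 and the 5 nearest profiles. AHNAK, EZR, ANXA3, ANXA7, S100A5 fall outside that rule and were added with their values seen, as were genes named only as below the filter. Same-numbered arrays deviated together (r = 0.899, 0.638 and 0.635 for numbers 1, 2 and 3). Numbers 2 and 3 also shared some of this: r was 0.411 for miR21 replicate 2 with control replicate 3. It was 0.283 for miR21 replicate 3 with control replicate 2. Between number 1 and the other numbers r lay between -0.754 and -0.623. The block fit and the differences within numbers took the titles' numbers as pairs, and the fit without the block did not. RefSeq windows were searched for motifs. Alternatives were median centring, quantile normalization, 16 added before log2, other filters and probe set rules, no variance trend, array weights, the replicate block and arrays left out.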

Additional observations from a re-analysis of the deposited data

How the results depend on the processing

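The S100P difference lay between 3.99 and 4.65 on the log2 scale under the alternatives that kept all arrays. It was 4.36 with the replicate block, which by design cannot change it. It lay between 2.73 and 6.88 with 1 array left out, and at 3.04, 3.10 and 6.95 without number 1, 2 or 3. Its excess over the median of the other members lay between 2.98 and 7.08 with 1 array left out. With the upper quartile filter S100P was not measured. S100A2, S100A3, S100A4, S100A10 and S100A11 were lower and S100A14 higher in all 19 alternatives. Several of these could not have turned a sign. The other filters, each probe set on its own, no variance trend and the replicate block leave a gene's difference unchanged. So does the mean of all probe sets for a gene with 1 probe set. With 1 array left out the difference lay between -1.89 and -0.62 for S100A2, -1.45 and -0.43 for S100A10, -0.48 and -0.19 for S100A11, -0.36 and -0.05 for S100A4, and 0.28 and 1.28 for S100A14. S100A6, S100A13 and S100A16 changed sign in 5, 3 and 4. Limma called 4 genes with the replicate block, and 59, 0 and 4004 (32.8%) with the block and without number 1, 2 or 3. Of 39 relatives and partners it called 20 without number 3 (6 higher, 14 lower) and 0 in every other alternative; the cause was not tested. Those fits rest on 2 pairs. The array weights stopped before they converged.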

Other observations

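The control arrays alone differed among themselves for some S100 genes. With 1 control array per number, differences between numbers cannot be told from scatter between arrays. By the brightest probe set of each gene, their log2 range was widest for S100P, 1.64 between dim signals. It was 1.36 for S100A13, 1.19 for S100A10 and 1.13 for S100A2, against 0.18 for S100A3 and 0.34 for S100A16. In the dimmer probe sets it was 1.94 for S100A13 and 0.53 for S100A10. The range over all genes was not examined, so these values are not shown to be particular to S100 genes. S100A10 and S100A2 read lowest on number 1 and highest on number 3 in both groups, while S100A11 read highest on number 1 and lowest on number 3 in both.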
